A study of Mus musculus with 9 samples.

Results

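The genes described here are 10 that encode parts of the Polycomb repressive complexes, among 37310 genes counted in 9 RNA-seq libraries from E14 cells, a line of mouse embryonic stem (ES) cells. They were chosen by name for their place in the complexes, with earlier results of these data known. They were matched by symbol to the Ensembl identifiers of the count files. All 10 passed the filter on low counts that left 16224 genes for testing. Ezh2, Eed, Suz12, Jarid2 and Mtf2 belong to Polycomb repressive complex 2 (PRC2), and Ring1, Rnf2, Pcgf6, Kdm2b and Cbx7 to Polycomb repressive complex 1 (PRC1).

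3 libraries are labelled Zbtb11 KO: these cells carry Zbtb11 lox/lox alleles and a Rosa26 ERt2-Cre gene, and were grown for 72 h with 250 nM of 4OHT (4-hydroxytamoxifen), which binds and switches on ERt2-Cre. 3 libraries are a 4OHT control, from cells with Zbtb11 WT/WT and Rosa26 WT alleles under the same drug for the same time. 3 libraries are an EtOH control, from the same lox/lox, ERt2-Cre cells given the carrier ethanol for 72 h. All cells were grown without feeders on gelatin in serum with LIF. The KO-labelled libraries differ from the EtOH control in the drug and from the 4OHT control in the line, while the 2 controls differ from each other in both. Whether the libraries of a group are separate cultures is not in the labels; the spread behind each p-value is that of the libraries and may be technical.

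PRC2 is the enzyme complex that places methyl groups on lysine 27 of histone H3. PRC1 is a ubiquitin ligase for histone H2A that comes in canonical forms, which bind the methyl mark through a Cbx protein, and in variant forms, which carry other partners and can be brought to CpG islands by Kdm2b. In ES cells both complexes sit at the promoters of developmental regulators, such as the Hox genes, and keep their transcription low.

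Zbtb11 itself, the gene that the labels give as deleted, was not lower in the KO-labelled libraries. It had 369, 386 and 376 CPM (read counts scaled to a common library size with TMM factors) in the KO-labelled libraries, 363, 378 and 361 CPM in the 4OHT control and 347, 358 and 359 CPM in the EtOH control. The log2 fold change over the EtOH control was 0.09 ± 0.05 (SE; edgeR adjusted p = 0.174, and, as a rise, 0.032 with the replicate number as a block and 0.0136 with library totals as the only scaling). Whole-gene counts do not show whether an exon was lost, so the deletion was not checked here, and the group is called by its label. Gene counts per library ranged from 16909139 to 23544893. KO-labelled library 3 differed from libraries 1 and 2 of its group by a chi-square of gene counts of 15.6 and 16.7 per degree of freedom. The same measure was 5.75 between KO-labelled libraries 1 and 2, and 4.98 to 7.55 for pairs within a control. Reads assigned to no gene made up 32.7% to 33.8% of each labelled KO file, 26.7% to 27.5% of each 4OHT control file and 26.4% to 28.7% of each EtOH control file. The 10 ES cell markers tested, among them Pou5f1, Nanog and Sox2, summed to 4224 to 4512 CPM in the KO-labelled libraries, 4581 to 5192 CPM in the 4OHT control and 4466 to 4665 CPM in the EtOH control. None of them rose in the KO-labelled libraries, 2 fell against the EtOH control (Esrrb and Utf1), and 5 fell against the 4OHT control (Pou5f1, Zfp42, Esrrb, Dppa5a and Fbxo15). The 8 fibroblast markers summed to 22.6 to 23.8 CPM in the KO-labelled libraries, 18.4 to 18.95 CPM in the 4OHT control and 18.9 to 23.0 CPM in the EtOH control. Of the 4 fibroblast markers tested, none was called against the EtOH control; against the 4OHT control Col1a1 and Col1a2 rose by a log2 fold change of 1.01 and 2.14, and Thy1 fell by 0.65. The 2 controls also differed: in the 4OHT control over the EtOH control 1 of these 4 rose and 2 fell, with log2 fold changes from -2.05 to 0.50. Lum and Postn had at most 0.0948 CPM in any library. The part of these markers in the members' values was not tested. In bulk RNA, fewer cells of a type and less RNA per cell cannot be told apart.

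In the KO-labelled libraries 4 members had less RNA than in the EtOH control: Cbx7, Eed, Suz12 and Pcgf6 fell by 12.2% to 15.2%, and no member rose (edgeR quasi-likelihood test, adjusted p under 0.05). This fit leaves out the replicate number, which pairs the libraries. With that number as a block 6 members were called, Ezh2 and Jarid2 being added, and genes called went from 4417 to 6936. Against the 4OHT control 5 members fell, by 14.4% to 23.9%: Cbx7, Eed, Suz12, Rnf2 and Kdm2b. Cbx7, Eed and Suz12 fell against both controls, and in each of them all 3 KO-labelled libraries lay below all 6 control libraries. Of all tested genes, 20.5% were lower in every KO-labelled library than in any EtOH control library, and 23.7% were lower than in any 4OHT control library. Rnf2 and Kdm2b rose in the 4OHT control over the EtOH control, by 21.2% and 23.2%, with all 3 libraries higher, as in 18.1% of all genes. Over all tested genes, 14.2% fell and 13% rose against the EtOH control, 19.8% fell and 19.1% rose against the 4OHT control, and 8.75% fell and 9.66% rose in the 4OHT control over the EtOH control. A fall was more frequent among abundant genes, and 9 of the 10 members are abundant. Among the 3361 genes whose mean log2 CPM was 6 or more, which include every member but Ring1, 28.5% fell against the EtOH control and 32.9% against the 4OHT control.

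**Figure D1:**
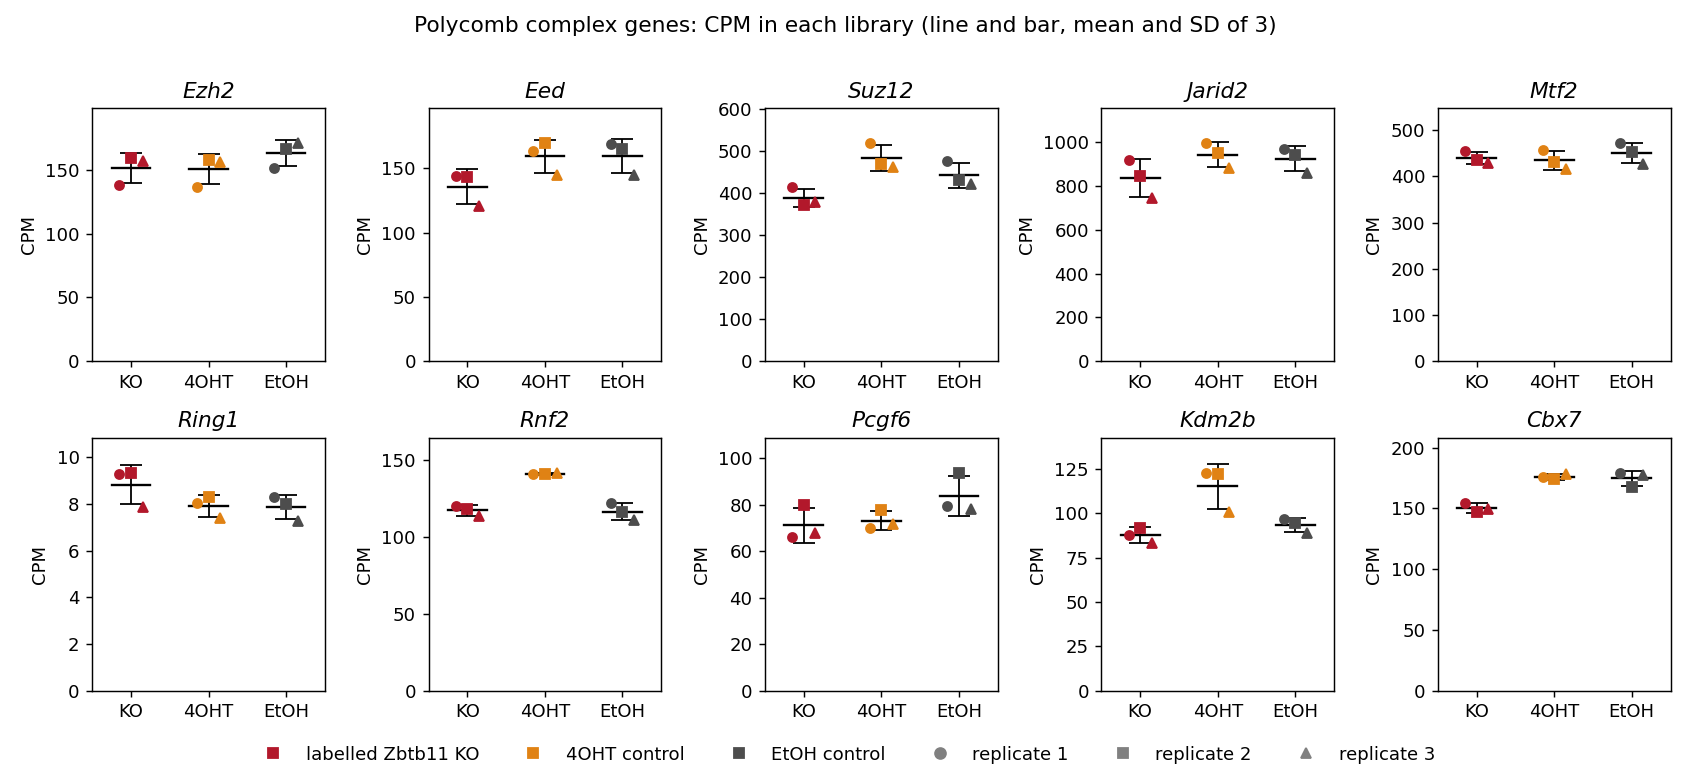
Level of each of the 10 Polycomb genes in every library, in CPM after TMM scaling on a vertical axis of its own for each gene. Points are libraries, grouped as KO-labelled, 4OHT control and EtOH control, and lines and bars mark the mean and SD of 3. Cbx7, Eed and Suz12 are lower in each KO-labelled library than in any control library, and Rnf2 and Kdm2b are higher in each 4OHT control library than in the other 6.

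Among the core subunits of PRC2, Ezh2 encodes the methyltransferase. Ezh2 had 138, 159 and 157 CPM in the KO-labelled libraries, 137, 158 and 157 CPM in the 4OHT control and 152, 167 and 171 CPM in the EtOH control. The 3 groups overlapped, and no comparison passed the test. The log2 fold change was -0.11 ± 0.07 over the EtOH control (SE; 95% interval -0.28 to 0.07, edgeR adjusted p = 0.277) and 0.01 ± 0.07 over the 4OHT control (-0.17 to 0.18, adjusted p = 0.939). With the replicate number as a block, Ezh2 passed the edgeR test against the EtOH control in both 4OHT-treated groups, at adjusted p = 0.0173 for the KO-labelled libraries and 0.014 for the 4OHT control.

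Eed encodes the subunit that binds the methyl mark and stimulates the enzyme. Its values were 144, 143 and 121 CPM in the KO-labelled libraries, 163, 169.6 and 145 CPM in the 4OHT control and 169, 165 and 145 CPM in the EtOH control. The KO-labelled libraries were all lower than every control library, and the third library was the lowest of each group. Eed fell by 14.9% against the EtOH control (log2 fold change -0.23 ± 0.08, edgeR adjusted p = 0.0459) and by 14.6% against the 4OHT control (-0.23 ± 0.08, adjusted p = 0.0373). The controls differed by a log2 fold change of -0.00 (95% interval -0.20 to 0.19). The call against the EtOH control was lost without EtOH control library 1 or 2 or KO-labelled library 3 (edgeR adjusted p = 0.129, 0.137 and 0.145), with library totals as the only scaling (0.182), and with a filter of 1 CPM in 3 libraries (0.053). The call against the 4OHT control was lost with library totals (0.199) and without KO-labelled library 3 or 4OHT control library 1 or 2 (edgeR adjusted p = 0.135, 0.0878 and 0.129).

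Suz12 encodes the subunit that holds the PRC2 core together. It had 413, 373 and 379.6 CPM in the KO-labelled libraries, 519, 469 and 463 CPM in the 4OHT control and 476, 430.2 and 421 CPM in the EtOH control. Neither control overlapped the KO-labelled libraries. Suz12 fell by 12.2% against the EtOH control (log2 fold change -0.19 ± 0.06, edgeR adjusted p = 0.0335) and by 19.6% against the 4OHT control (-0.32 ± 0.06, adjusted p = 0.000803). The fall against the 4OHT control passed the test under all 16 alternatives tried. The one against the EtOH control did not without KO-labelled library 2 or 3 or EtOH control library 1 or 2 (edgeR adjusted p = 0.074, 0.0804, 0.139 and 0.0515), nor with library totals (0.21). With the replicate block, Suz12 also rose in the 4OHT control over the EtOH control (log2 fold change 0.13, edgeR adjusted p = 0.0019, against 0.171 without the block).

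Jarid2 and Mtf2 encode accessory subunits that bring PRC2 to chromatin. Jarid2 had 919, 847 and 746 CPM in the KO-labelled libraries, 996, 953 and 883 CPM in the 4OHT control and 972, 941 and 861 CPM in the EtOH control. Within each replicate number the KO-labelled library was the lowest of the 3, but the groups overlapped. The log2 fold change was -0.14 ± 0.07 over the EtOH control (edgeR adjusted p = 0.157) and -0.17 ± 0.07 over the 4OHT control (adjusted p = 0.0707). With the replicate block Jarid2 fell against both, with edgeR adjusted p = 0.000293 against the EtOH control and 1.7e-05 against the 4OHT control. It also fell against both with no filter on low counts (adjusted p = 0.044 and 0.00752) and without KO-labelled library 1 (0.0389 and 0.0156), and against the 4OHT control without 4OHT control library 3 (0.0361). Mtf2, whose protein binds unmethylated CpG-rich DNA, had 454, 435 and 429 CPM in the KO-labelled libraries, 457, 431 and 416 CPM in the 4OHT control and 472, 453 and 427 CPM in the EtOH control. The groups overlapped in full. Its log2 fold change was -0.04 (95% interval -0.16 to 0.09) over the EtOH control and 0.02 (-0.11 to 0.14) over the 4OHT control, so a fall of the size seen in Suz12 against the 4OHT control lay outside the interval of Mtf2 in both comparisons.

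Rnf2 and Ring1 encode the 2 alternative ubiquitin ligases of PRC1. Rnf2 had 120.4, 118 and 114 CPM in the KO-labelled libraries, 141, 141 and 142 CPM in the 4OHT control and 122, 116 and 111 CPM in the EtOH control. The 4OHT control stood above the other 6 libraries, which overlapped each other. Rnf2 fell by 16.8% in the KO-labelled libraries against the 4OHT control (log2 fold change -0.27 ± 0.05, edgeR adjusted p = 0.000725) and rose by 21.2% in the 4OHT control over the EtOH control (0.28 ± 0.05, adjusted p = 0.00126). Over the EtOH control the KO-labelled libraries differed by a log2 fold change of 0.01 (95% interval -0.11 to 0.14, adjusted p = 0.885). Ring1 was the least abundant member, with 9.28, 9.33 and 7.84 CPM in the KO-labelled libraries, 8.05, 8.28 and 7.39 CPM in the 4OHT control and 8.27, 8.0 and 7.28 CPM in the EtOH control. The groups overlapped, and the log2 fold change of 0.17 ± 0.11 over the EtOH control did not pass the test (95% interval -0.11 to 0.45, edgeR adjusted p = 0.3).

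Cbx7 encodes the chromodomain protein by which canonical PRC1 reads the methyl mark in ES cells. Cbx7 had 155, 147 and 149.7 CPM in the KO-labelled libraries, 176, 174 and 178 CPM in the 4OHT control and 179, 167 and 177 CPM in the EtOH control. The KO-labelled libraries lay below both controls, and the controls overlapped each other. Cbx7 fell by 13.8% against the EtOH control (log2 fold change -0.21 ± 0.05, edgeR adjusted p = 0.00434) and by 14.4% against the 4OHT control (-0.22 ± 0.05, adjusted p = 0.00193). It was the member with the smallest p against the EtOH control. Among the 16 alternatives its call there was lost only with library totals (log2 fold change -0.14, edgeR adjusted p = 0.0501).

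Pcgf6 and Kdm2b encode parts of variant PRC1: Pcgf6 is the ring-finger partner in the form that also holds E2f6, Mga and Max, and Kdm2b the CpG-binding subunit of the form built on Pcgf1. Pcgf6 had 66.1, 79.7 and 67.7 CPM in the KO-labelled libraries, 69.8, 77.5 and 71.8 CPM in the 4OHT control and 79.3, 93.7 and 78.3 CPM in the EtOH control. The second library was the highest of each group, and the labelled KO and EtOH control libraries overlapped through it. Pcgf6 fell by 15.2% against the EtOH control (log2 fold change -0.24 ± 0.08, edgeR adjusted p = 0.0443) and differed by -0.04 ± 0.08 from the 4OHT control (adjusted p = 0.753). The call was lost without any 1 of KO-labelled libraries 1 and 3 and EtOH control library 2 (edgeR adjusted p = 0.156, 0.123 and 0.213), with library totals (0.118), and with a filter of 1 CPM in 3 libraries (0.0511). In the 4OHT control all 3 libraries were below the EtOH control, a log2 fold change of -0.20 ± 0.08 (edgeR adjusted p = 0.11, and, as a fall, 0.000505 with the replicate block and 0.0256 with no filter on low counts).

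Kdm2b had 87.8, 91.9 and 83.1 CPM in the KO-labelled libraries, 123, 122 and 101 CPM in the 4OHT control and 96.4, 94.6 and 89.1 CPM in the EtOH control. As with Rnf2, the 4OHT control stood above the other 6 libraries. Kdm2b fell by 23.9% in the KO-labelled libraries against the 4OHT control (log2 fold change -0.39 ± 0.07, edgeR adjusted p = 0.000466) and rose by 23.2% in the 4OHT control over the EtOH control (0.30 ± 0.07, adjusted p = 0.00798). Over the EtOH control the KO-labelled libraries differed by -0.09 ± 0.07 (95% interval -0.27 to 0.08, adjusted p = 0.361). The comparisons with the KO-labelled libraries and with the EtOH control share the 4OHT control libraries, so the 2 results for Kdm2b, and the 2 for Rnf2, rest in part on the same values.

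**Figure D2:**
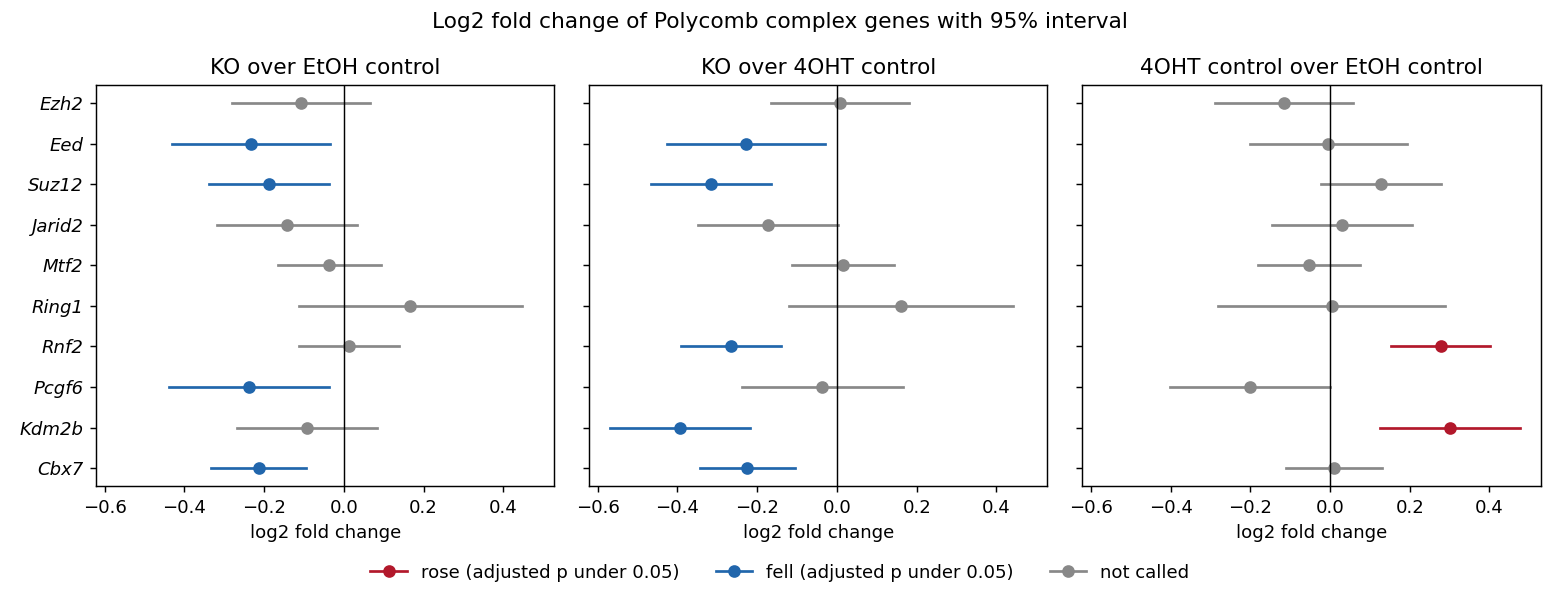
Log2 fold change of each of the 10 Polycomb genes in the 3 comparisons, with 95% intervals from the edgeR fit of all 9 libraries. The intervals use the 6 residual degrees of freedom alone and are wider than the test behind the calls would give. Blue (fell) and red (rose) points passed an adjusted p of 0.05 and grey ones did not. The 4 calls over the EtOH control and the 5 over the 4OHT control lie below 0, and the 2 calls in the 4OHT control over the EtOH control, Rnf2 and Kdm2b, lie above it.

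As a group the 10 members stayed within a narrow band. Their log2 fold changes had a median of -0.13 over the EtOH control and -0.20 over the 4OHT control, beside 0.01 and 0.02 over all tested genes and -0.07 and -0.06 over the 3361 genes at 6 or more. In the 4OHT control over the EtOH control the median was 0.01, beside 0.00 over all genes. The 9 members in that range of abundance included 4 falls against the EtOH control, where 28.5% of the genes in the range fell. They included 5 falls against the 4OHT control, where 32.9% did. The share of genes that fell was higher at higher abundance: of the 2027 genes below a mean log2 CPM of 0, 1.09% fell and 11.1% rose against the EtOH control, with a median of 0.29. Summed over the 10 members, RNA came to 2388 ± 127 CPM in the KO-labelled libraries, 2685 ± 114 CPM in the 4OHT control and 2616 ± 120.3 CPM in the EtOH control (SD, n = 3 each). The sum was 2507, 2404 and 2254 CPM in KO-labelled libraries 1, 2 and 3, against 2726, 2636 and 2487 CPM in EtOH control libraries 1, 2 and 3. It was lower in the KO-labelled library within each number, although the ranges overlapped. All 3 KO-labelled libraries lay below the 4OHT control libraries, at 2563 to 2790 CPM. The sum is weighted to the members with most reads and does not describe each of the 10. Jarid2 alone, which was not called in the main fit, averaged 837 CPM in the KO-labelled libraries, 944 CPM in the 4OHT control and 925 CPM in the EtOH control.

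**Figure D3:**
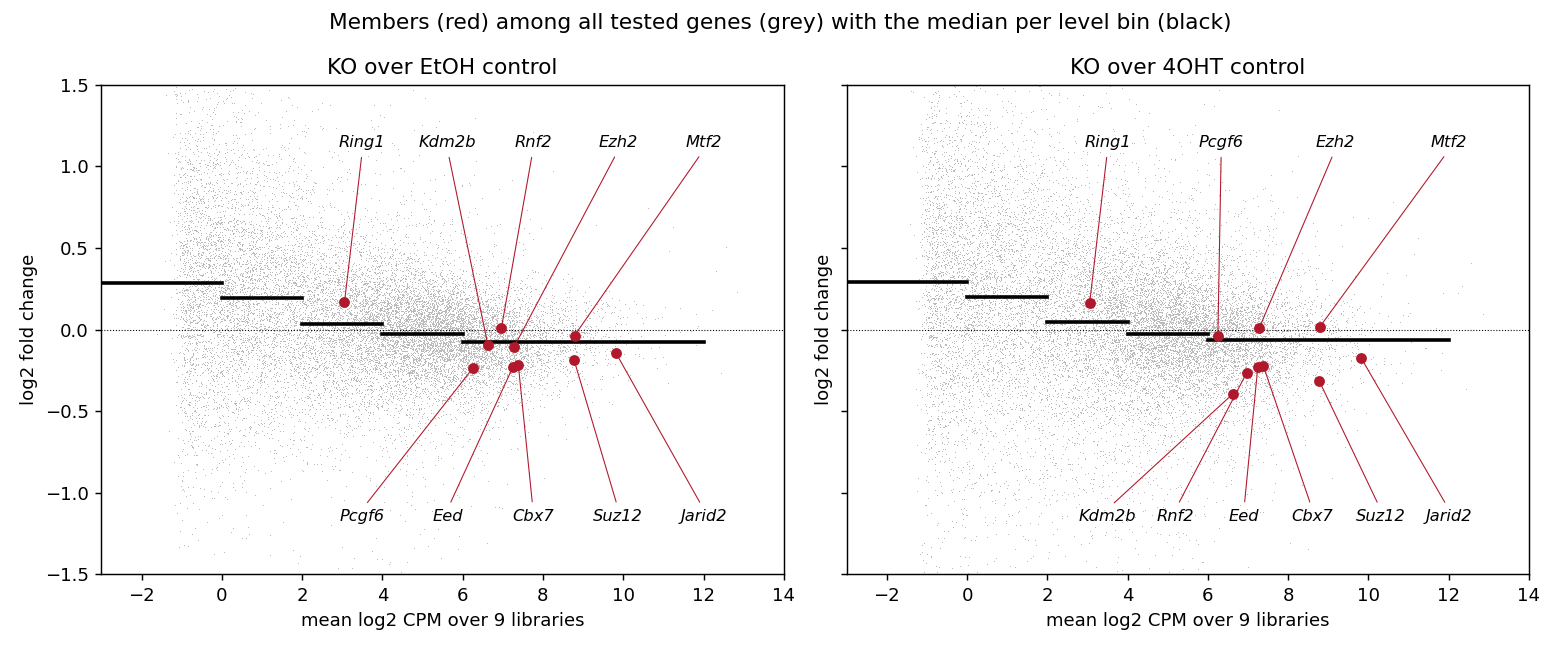
Log2 fold change (vertical axis, -1.5 to 1.5) against mean log2 CPM over 9 libraries (horizontal axis) for all tested genes within the axes in grey and the 10 Polycomb genes in red, in the KO-labelled libraries over the EtOH control (left) and over the 4OHT control (right). Black bars are medians per range of abundance; they run from 0.29 in the lowest range to -0.07 (left) and -0.06 (right) in the highest, which holds 9 of the 10 genes.

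The promoters of the 3 genes that fell against both controls are shown here as the sequence next to the start of each transcript. The 250 bases before the start were read from RefSeq annotation of GRCm38.p6, on the sense strand, with CG dinucleotides in capitals. The windows are chr7:89980977-89981226 (minus strand) for Eed, chr11:79992856-79993105 (plus strand) for Suz12 and chr15:79932647-79932896 (minus strand) for Cbx7.
Eed: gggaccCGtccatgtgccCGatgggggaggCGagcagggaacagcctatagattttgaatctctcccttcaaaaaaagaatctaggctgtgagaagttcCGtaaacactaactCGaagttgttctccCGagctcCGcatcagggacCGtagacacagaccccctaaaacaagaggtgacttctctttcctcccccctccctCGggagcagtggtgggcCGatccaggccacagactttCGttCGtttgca
Suz12: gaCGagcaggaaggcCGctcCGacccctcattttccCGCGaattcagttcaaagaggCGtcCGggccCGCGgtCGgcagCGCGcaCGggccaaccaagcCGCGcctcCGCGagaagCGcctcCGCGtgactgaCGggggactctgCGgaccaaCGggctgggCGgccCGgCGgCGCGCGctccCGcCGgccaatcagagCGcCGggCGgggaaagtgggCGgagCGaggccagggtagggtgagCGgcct
Cbx7: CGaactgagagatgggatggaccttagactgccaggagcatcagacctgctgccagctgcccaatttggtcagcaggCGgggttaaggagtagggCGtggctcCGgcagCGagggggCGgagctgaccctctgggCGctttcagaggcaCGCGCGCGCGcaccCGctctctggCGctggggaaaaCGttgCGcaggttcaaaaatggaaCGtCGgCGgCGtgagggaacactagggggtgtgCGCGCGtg
They differ in CG content: Eed has 12 CG dinucleotides, Suz12 37 and Cbx7 23. Among 32851 windows of the same length the median was 6, and 33.5%, 2.2% and 13.3% of windows had at least as many as Eed, Suz12 and Cbx7. 3 motifs were searched for on both strands: CCGGAAG (ETS factors), found in 6.91% of all windows, and TTTCCCGC and TTTGGCGC (E2F), found in 0.895% and 0.417%. The Suz12 window held 1 match to TTTCCCGC, starting 219 bases before the start. None of the 3 strings was found in the windows of the other 9 members.

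Levels were compared between genes only as CPM per kilobase of exon, from exon lengths in the GENCODE M21 annotation. Over the 9 libraries Jarid2 had 92.8 CPM per kilobase, Suz12 88.6, Mtf2 77.5, Eed 39.6, Rnf2 30.3, Cbx7 25.7, Ezh2 23.2, Pcgf6 15.1, Kdm2b 9.08 and Ring1 2.53 CPM per kilobase. The libraries of Jarid2 (76.8 to 102.6) overlapped those of Suz12 (75.4 to 104.9), and both overlapped those of Mtf2 (73.0 to 82.8 CPM per kilobase). Those of Eed (31.5 to 44.3) overlapped those of Rnf2 (26.9 to 34.4 CPM per kilobase), which in turn overlapped those of Cbx7 (22.7 to 27.6), and Cbx7 overlapped Ezh2 (20.5 to 25.6 CPM per kilobase). Pcgf6, Kdm2b and Ring1 each lay apart from their neighbours. The core of PRC2 thus had unequal RNA levels, with Suz12 per kilobase at 3.49 ± 0.49 times Ezh2 in the KO-labelled libraries, 4.37 ± 0.65 times in the 4OHT control and 3.68 ± 0.49 times in the EtOH control (SD, n = 3 each).

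Paralogs within the complexes differed in level. Rnf2 exceeded Ring1 per kilobase by 10.5 ± 0.77 times in the KO-labelled libraries, 14.1 ± 0.90 times in the 4OHT control and 11.7 ± 0.28 times in the EtOH control. The 4OHT control libraries (13.4 to 15.1 times) stood above the others, as Rnf2 did. Ezh2 exceeded Ezh1, the other methyltransferase, by 3.84 ± 0.50 times in the KO-labelled libraries, 3.25 ± 0.42 times in the 4OHT control and 3.36 ± 0.12 times in the EtOH control. Cbx7 exceeded Cbx2, another chromodomain subunit, by 2.15 ± 0.13 times in the KO-labelled libraries, 2.08 ± 0.11 times in the 4OHT control and 2.36 ± 0.13 times in the EtOH control (SD, n = 3 each). For both of these pairs the labelled KO and EtOH control libraries overlapped.

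**Figure D4:**
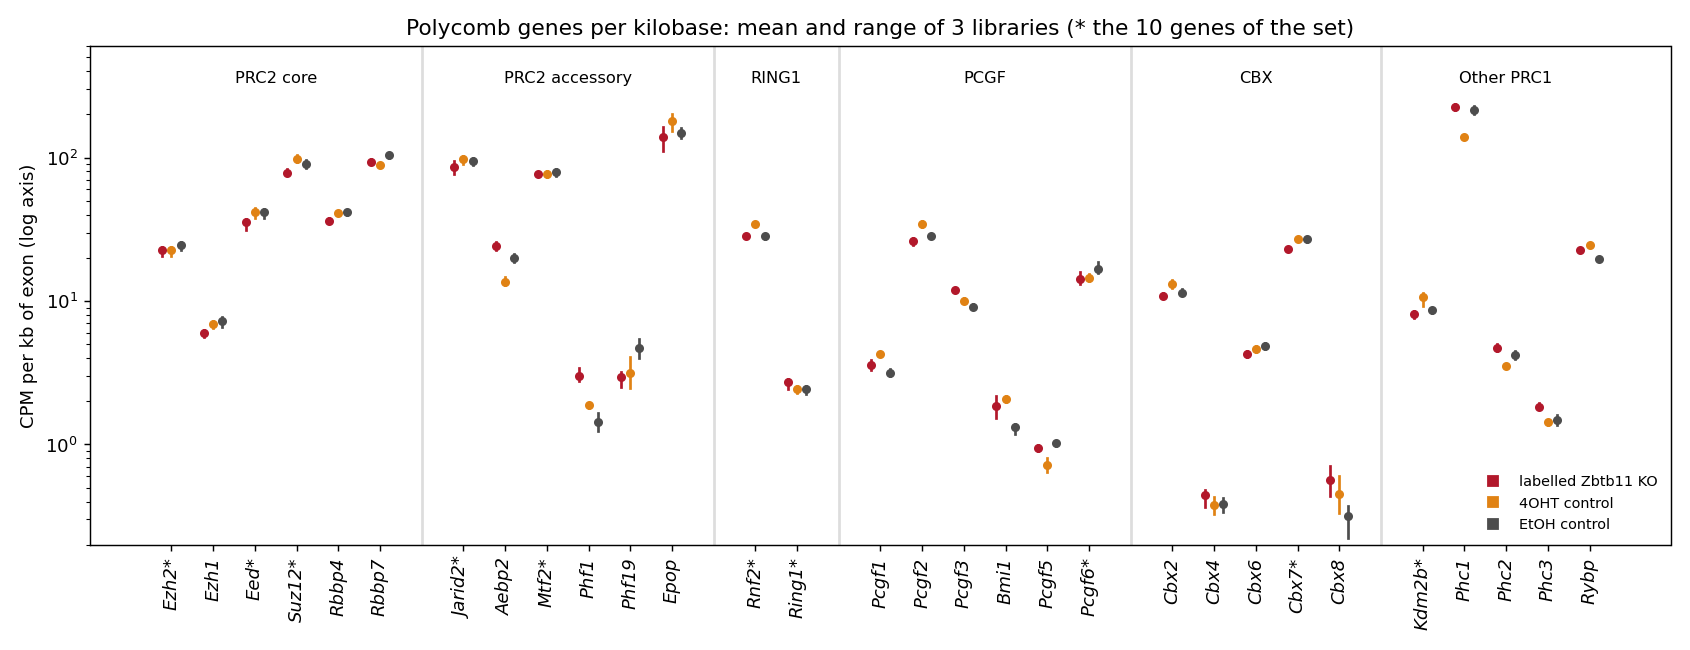
Level of the 10 Polycomb genes (marked with *) and of related subunits, in CPM per kilobase of exon on a log axis. Points are group means and lines run from the lowest to the highest library of a group. Jarid2, Suz12 and Mtf2 are the highest of the 10, at 92.8, 88.6 and 77.5 CPM per kilobase over all libraries, and Ring1 is the lowest member at 2.53.

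Another 55 genes of the Polycomb system were tested, in 4 lists written from knowledge of the complexes, with earlier results of these data known. The lists are other PRC2 subunits, other canonical PRC1 subunits, other variant PRC1 subunits, and enzymes that oppose Polycomb. Of the 55, 8 rose and 12 fell against the EtOH control (14.5% and 21.8%, beside 13% and 14.2% of all tested genes), with a median log2 fold change of 0.02. Against the 4OHT control 12 rose and 14 fell (21.8% and 25.5%, beside 19.1% and 19.8% of all tested genes). In the 4OHT control over the EtOH control 13 rose and 9 fell (23.6% and 16.4%, beside 9.66% and 8.75%). Many of the 55 are abundant. Of genes at a mean log2 CPM of 4 to 6, 19.4% fell against the EtOH control and 25% against the 4OHT control. At 6 or more, 28.5% and 32.9% did. Rises made up 13.8% and 20.3% at 4 to 6, and 9.73% and 15.2% at 6 or more. In the 4OHT control over the EtOH control, 11.7% rose and 11.5% fell at 4 to 6, and 12.2% rose and 12.1% fell at 6 or more.

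Of 10 other PRC2 genes, 3 rose and 4 fell against the EtOH control. Phf1, a paralog of Mtf2, had 11.9, 9.96 and 9.61 CPM in the KO-labelled libraries, 6.59, 6.28 and 6.72 CPM in the 4OHT control and 5.82, 4.33 and 4.96 CPM in the EtOH control. The KO-labelled libraries stood above both controls, and Phf1 rose by a log2 fold change of 1.06 ± 0.13 over the EtOH control (edgeR adjusted p = 2.92e-05). In GENCODE M21, 39.3% of the Phf1 exon bases lie opposite exons of Cuta, and how strand was handled in counting was not given in the sources used here. Aebp2, an accessory subunit found in a PRC2 form without Mtf2, rose by 0.27 ± 0.07 over the EtOH control (adjusted p = 0.00848) and by 0.82 ± 0.07 over the 4OHT control (adjusted p = 2.16e-07). In the 4OHT control it fell by 0.55 ± 0.07 on the log2 scale against the EtOH control (adjusted p = 4.72e-05). Ezh1 fell by 18.5% against the EtOH control and the histone-binding subunit Rbbp4 by 12.5% (edgeR adjusted p = 0.00693 and 0.00754). Against the EtOH control, Aebp2 lost its call without KO-labelled library 1 or EtOH control library 2, and Rbbp4 with library totals.

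Of 11 other canonical PRC1 genes, 3 rose and 1 fell against the EtOH control. Phc3, a polyhomeotic subunit, rose by a log2 fold change of 0.30 ± 0.08, the ring-finger gene Bmi1 by 0.50 ± 0.14 and Cbx8, a paralog of Cbx7, by 0.86 ± 0.28 (edgeR adjusted p = 0.00814, 0.0163 and 0.0306). Cbx8 was low, at 2.09 ± 0.49 CPM in the KO-labelled libraries, 1.67 ± 0.50 CPM in the 4OHT control and 1.17 ± 0.30 CPM in the EtOH control (SD, n = 3 each). Against the 4OHT control Cbx8 was not called (0.32 ± 0.26, edgeR adjusted p = 0.363). Bmi1 averaged 7.36 ± 1.31 CPM in the KO-labelled libraries, 8.23 ± 0.43 CPM in the 4OHT control and 5.24 ± 0.45 CPM in the EtOH control (SD, n = 3 each). It was not called against the 4OHT control (-0.16 ± 0.14, edgeR adjusted p = 0.386), and it rose in the 4OHT control over the EtOH control (0.66 ± 0.14, adjusted p = 0.00406). Cbx6, also a paralog of Cbx7, fell by 12.3% (edgeR adjusted p = 0.0374). Without KO-labelled library 1 only Cbx6 of these 4 passed the test. Without EtOH control library 2 Bmi1 and Cbx8 did not, and Cbx6 also lost its call with library totals, with no filter, and without any 1 of KO-labelled libraries 2 and 3 and EtOH control libraries 1 and 3. Cbx8 lost its call with DESeq2 and without EtOH control library 1 or KO-labelled library 3 as well. Phc1, a polyhomeotic subunit named after its values were seen, had 1138, 1172 and 1254 CPM in the KO-labelled libraries, 740.2, 738 and 748 CPM in the 4OHT control and 1064, 1128 and 1208 CPM in the EtOH control. It was lower in every 4OHT control library than in the other 6, whereas Rnf2 and Kdm2b were higher there.

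Of 22 other variant PRC1 genes, 2 rose and 4 fell against the EtOH control. Pcgf3, a ring-finger subunit, rose by a log2 fold change of 0.38 ± 0.05 over the EtOH control and by 0.25 ± 0.05 over the 4OHT control (edgeR adjusted p = 6.52e-05 and 0.00125). Tfdp1, the partner of E2f6 in the Pcgf6 form, fell by 19.99% against the EtOH control and by 31.3% against the 4OHT control (adjusted p = 0.000635 and 1.95e-06). Auts2, a subunit of the Pcgf3 and Pcgf5 forms, fell by 31.6% against the EtOH control (adjusted p = 0.00208), and its log2 fold change over the 4OHT control was -0.03 ± 0.11 (adjusted p = 0.826). Csnk2a1, a casein kinase subunit, fell by 17.6% against the EtOH control (adjusted p = 0.000665), with the limit that it has processed copies in the genome that could take some of its reads.

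Of 12 genes for enzymes that oppose Polycomb and their partners, none rose and 3 fell against the EtOH control. Kdm6b, a demethylase for lysine 27 of histone H3, had 106, 102 and 98.6 CPM in the KO-labelled libraries, 152, 162 and 161 CPM in the 4OHT control and 119, 117 and 115 CPM in the EtOH control. No library of any group overlapped another group. Kdm6b fell by 12.5% against the EtOH control and by 35.2% against the 4OHT control (edgeR adjusted p = 0.0105 and 1.14e-07), and rose by 35.0% in the 4OHT control over the EtOH control (adjusted p = 2.08e-05). Hcfc1 and Asxl3, partners of the H2A deubiquitinase Bap1, fell by 14.4% and 26.1% against the EtOH control (adjusted p = 0.00526 and 0.0473), and Asxl3 lost its call in 11 of the 16 alternatives, among them those without any 1 of the 6 libraries compared. With library totals Kdm6b lost its call against the EtOH control.

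Genes known as Polycomb targets in ES cells were counted in 2 lists. Of 38 Hox genes matched in the files, 34 were too low to be tested. 3 of the 4 tested rose over the EtOH control and over the 4OHT control, beside 13% and 19.1% of all genes. Hoxb9 had 3.82, 2.43 and 2.70 CPM in the KO-labelled libraries, 0.616, 0.704 and 0.912 CPM in the 4OHT control and 1.27, 0.874 and 0.896 CPM in the EtOH control. Its log2 fold change was 1.55 ± 0.25 over the EtOH control and 2.00 ± 0.26 over the 4OHT control (edgeR adjusted p = 0.000285 and 2.27e-05). Hoxc13 rose by 1.62 ± 0.33 and Hoxd13, named after its values were seen, by 1.58 ± 0.32 over the EtOH control (adjusted p = 0.00216 and 0.00213). The 38 Hox genes together had 12.3 to 15.3 CPM in the KO-labelled libraries, 7.16 to 8.40 CPM in the 4OHT control and 6.55 to 7.46 CPM in the EtOH control, so they were low in every library.

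Of 52 other targets, 34 were tested. Over the EtOH control 7 of them rose and 1 fell, where 13% of all tested genes rose and 14.2% fell. Over the 4OHT control 11 rose and 4 fell, where 19.1% of all tested genes rose and 19.8% fell. Among the targets that rose over both is Sox17, an endoderm regulator named after its values were seen. It passed the filter on low counts only through the KO-labelled libraries and so had to differ. Of the 27 targets that pass the filter on the 6 control libraries alone, a count added after the data were seen, 6 rose and 1 fell over the EtOH control, and 10 rose and 4 fell over the 4OHT control. Gata6, an endoderm regulator, had 3.39, 4.42 and 3.06 CPM in the KO-labelled libraries, 1.23, 1.12 and 1.58 CPM in the 4OHT control and 1.96, 1.18 and 1.61 CPM in the EtOH control. All 3 KO-labelled libraries stood above both controls, a log2 fold change of 1.20 ± 0.22 over the EtOH control (edgeR adjusted p = 0.00105). Cdkn2b, a cell cycle inhibitor, and Irx5, a homeobox regulator, rose by 1.28 ± 0.25 and 1.15 ± 0.30 over the EtOH control (adjusted p = 0.0014 and 0.0103). The call of Irx5 was lost without KO-labelled library 1 or EtOH control library 2. The 52 other targets together had 257 to 364 CPM in the KO-labelled libraries. They had 233 to 318 CPM in the 4OHT control and 208 to 275 CPM in the EtOH control. Unlike the sum of the Hox genes, this sum in the KO-labelled libraries overlapped that in both controls. Most of it came from 1 gene, Tbx3, which was singled out after its values were seen. Without Tbx3 the other 51 had 86.3 to 99.3 CPM in the KO-labelled libraries. They had 91.9 to 96.0 CPM in the 4OHT control and 72.0 to 82.9 CPM in the EtOH control. That smaller sum lay above the EtOH control and overlapped the 4OHT control.

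The genes that rose in these target lists were low, and low genes as a whole were higher in the KO-labelled libraries. Genes with a mean log2 CPM of 0 to 2, the range of Hoxb9, Gata6 and Cdkn2b, had a median log2 fold change of 0.19 over the EtOH control and 0.20 over the 4OHT control, and 15.3% and 21.6% of them rose. The genes below the filter summed to 1038 to 1219 CPM in the KO-labelled libraries, 891 to 946 CPM in the 4OHT control and 835 to 953 CPM in the EtOH control. The share of reads assigned to no gene was also higher in the KO-labelled libraries. The part of either in the values of the target genes was not tested.

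**Figure D5:**
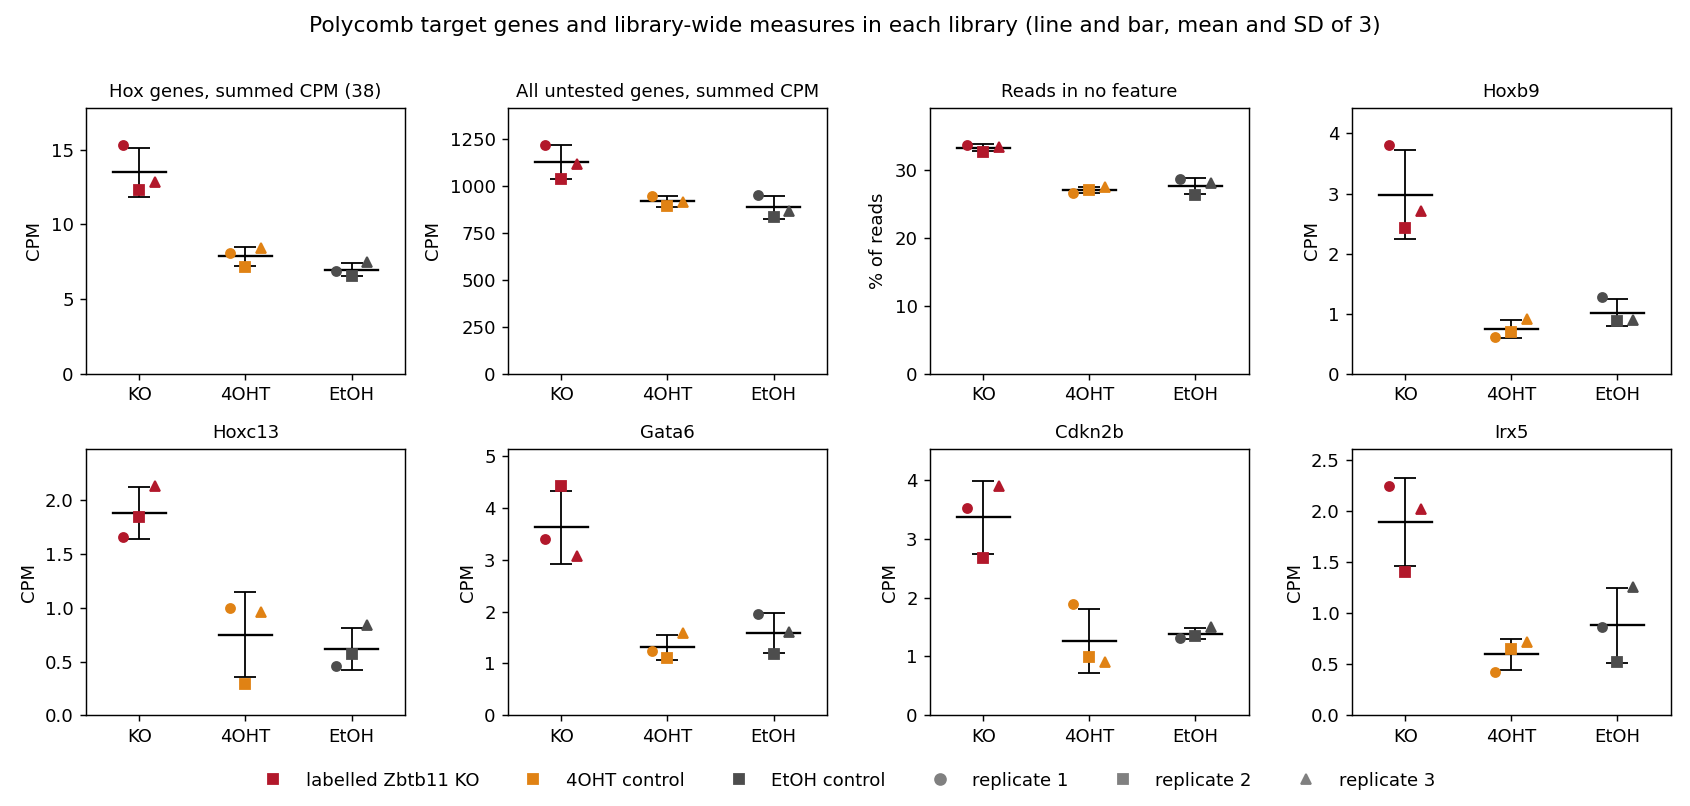
Summed CPM of the 38 Hox genes and of all genes below the filter, the percentage of reads assigned to no gene, and the CPM of 5 Polycomb targets, in each KO-labelled, 4OHT control and EtOH control library (points), with the mean and SD of 3 libraries as lines and bars and every axis from 0. Each of the first 3 measures and each of the 5 targets is higher in all 3 KO-labelled libraries than in the controls. The 5 targets were picked from those that rose over the EtOH control, so their place above that control largely follows from the choice. Of the 34 other targets tested, 26 were not called over the EtOH control. Gata6 averaged 3.63 CPM in the KO-labelled libraries, against 1.31 CPM in the 4OHT control and 1.58 CPM in the EtOH control.

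The profile most like that of Cbx7 over the 9 libraries, by the Euclidean distance between log2 CPM values centred on each gene's mean, was that of Gga3 (distance 0.105), followed by Kmt2b (0.108), Mast2 (0.111), Sbf1 (0.119) and Dync1i2 (0.121). The median distance of all tested genes from Cbx7 was 0.674. Gga3 encodes an adaptor of vesicle transport and Kmt2b a methyltransferase for lysine 4 of histone H3. The log2 fold change over the EtOH control was -0.24 for Gga3 and -0.22 for Kmt2b, beside -0.21 for Cbx7. These genes were picked for their likeness to Cbx7 in the same libraries, so their fold changes had to lie near its own.

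For 7 members, some exon bases lie opposite an exon of another gene in GENCODE M21, from 1.54% in Cbx7 to 7.60% in Kdm2b. The other 3, Jarid2, Ring1 and Pcgf6, have none. With the strand setting unknown, reads from the opposite strand cannot be told apart in those stretches.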

How the data were processed

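RNA was depleted of ribosomal RNA and made into directional libraries, per the labels' protocols. The authors deposited 1 file for each of 9 libraries with raw counts of reads per gene. The submitters' processing notes name cutadapt, STAR, HTSeq, edgeR, Bowtie 1.1.2, MACS2, DiffBind and the build mm9, without roles, with a strand setting not given in the sources used here. Groups came from the labels.

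Counts were tested with edgeR 4.0.16 (R 4.3.3, limma 3.58.1): robust quasi-likelihood F test, TMM scaling, filterByExpr by group, all 9 libraries in 1 fit (6 residual degrees of freedom), Benjamini-Hochberg adjustment over 16224 genes, calls at adjusted p under 0.05. "Rose" and "fell" mean such calls. SE is the log2 fold change over the root of F, and percentages are the fitted fold changes. The fit was also run on simulated counts with known changes. Those counts carried no pairing by replicate number, and no result here rests on that run. Rows naming no gene were left out. 32620 of 37310 identifiers matched a symbol in GENCODE M21 (GRCm38), used for names, exon lengths and overlaps.

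Members and lists were chosen with earlier results of these data known. Named were all members, Zbtb11, up to 4 genes per Polycomb list and 6 targets called against the EtOH control (targets at a mean log2 CPM of at least 0) by smallest p, up to 2 by smallest p in any comparison where a list had none, and the 5 nearest profiles to the member of smallest p; 1 of the targets is not reported here. Replicate numbers are shared: deviations from group means correlated at 0.109 to 0.311 in all 9 same-number pairs and at -0.225 to -0.022 in 18 others, so the numbers pair the libraries. The labels do not say what a number stands for. The main fit leaves this pairing out, and the fit with the number as a block is among the alternatives. The ranges of abundance were added after the data were seen. 16 alternatives were tried, DESeq2 1.42.0 among them.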

Additional observations from a re-analysis of the deposited data

How the results depend on the processing

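Each value was recomputed under 16 alternatives. Of 480 values for the members, 419 kept their direction and side of the threshold, 20 lost and 12 gained a call, and 29 reversed, all of them in comparisons without a call. Of 1296 values for 27 other genes under the naming rule, 1226 kept both, 53 lost and 8 gained a call and 9 reversed.

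The count of members called over the EtOH control was 0 with library totals as the only scaling, 2 with a filter of 1 CPM in 3 libraries, 6 with the replicate number as a block, and 1 to 4 with a library left out (2 without EtOH control library 1, 1 without EtOH control library 2, 1 without KO-labelled library 3). Library totals moved the median of all genes to 0.08 over the EtOH control and 0.10 over the 4OHT control. With the replicate number as a block, 6936 genes were called over the EtOH control, and in the 4OHT control over the EtOH control 5323 genes and 5 members. Between those controls 1974 to 3069 genes were called with a library left out, 1974 without EtOH control library 2. Against the 4OHT control 4 to 6 members were called. Values near 0 changed sign. With library totals the log2 fold change was 0.034 for Mtf2 over the EtOH control, 0.045 for Pcgf6 and 0.048 for Auts2 over the 4OHT control, and -0.0076 for Ring1 and -0.0027 for Cbx7 between the controls. Ezh2 over the 4OHT control was -0.0032 with RLE size factors and with DESeq2, and Ring1 between the controls was -0.0022 with only the 2 groups in the fit. With a library left out, Rnf2 over the EtOH control ran from -0.022 to 0.041. Over the 4OHT control Ezh2 ran from -0.058 to 0.070, Mtf2 from -0.017 to 0.051, Pcgf6 from -0.13 to 0.013 and Auts2 from -0.14 to 0.079. In the 4OHT control over the EtOH control Eed ran from -0.070 to 0.056, Jarid2 from -0.019 to 0.073, Ring1 from -0.043 to 0.048, Cbx7 from -0.023 to 0.027, Rbbp4 from -0.040 to 0.0035, Hcfc1 from -0.011 to 0.070, Kmt2b from -0.042 to 0.012 and Cdkn2b from -0.54 to 0.094. The causes were not tested.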
